A study of Homo sapiens with 4 samples.

Results

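B3GNT7 and the enzymes that build, sulfate and cap N-acetyllactosamine were examined in MHCC97H cells, an established human hepatocellular carcinoma (HCC) line, after knockdown of UBXN1. The genes were listed by name and found by symbol in the deposited count table, which gave 10 genes of the 61541 in it. B3GNT7 was picked on its large rise in this same comparison, so its own values are given as a description with no test. The others, B3GNT2, B3GNT3, B3GNT5, B4GALT1, B4GALT4, CHST2, CHST6, ST6GAL1 and FUT8, were listed for their function, but with earlier results of these data known. RNA was sequenced in 2 libraries of control cells carrying a control shRNA (shCon) and 2 libraries of cells carrying an shRNA against UBXN1 (shUBXN1). The cells of both groups received their shRNA by lentivirus, in the pLKO.1 vector by the methods. The labels call the control shCon, whereas the methods name shRFP as the control of the RNA-seq comparison. Which UBXN1 shRNA these libraries carried was not given in the sources used here, and both groups come from 1 cell line. Nothing in the labels says that libraries of a group came from separate cultures, so p-values measure the spread between these libraries, which may be technical.

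N-acetyllactosamine is a disaccharide of galactose and N-acetylglucosamine (GlcNAc) that is repeated in long chains on glycoproteins and glycolipids. B3GNT enzymes add the GlcNAc, B4GALT enzymes add the galactose, and their alternation extends the chain. CHST enzymes sulfate it, and the sulfated chains are known as keratan sulfate. Sialyltransferases such as ST6GAL1 cap the terminal galactose, and FUT8 puts the core fucose on N-glycans, the stems on which many of these chains grow. Galectins bind them, and liver cells and the proteins they secrete are rich in sialylated N-glycans.

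Depth was 27380508 and 24305174 counts for the shCon libraries, and 23433826 and 23373700 for the shUBXN1 libraries. UBXN1, the knockdown target, was counted 1788 and 1817 times in shCon against 416 and 433 times in shUBXN1. On the log2 scale it fell by 2.03 (edgeR, standard error 0.0963, Benjamini-Hochberg adjusted p = 9.98e-10). Mitochondrial transcripts took 5.28% and 5.59% of the counts in shCon and 7.43% and 8.27% in shUBXN1. Of the markers fixed for hepatocytes and HCC, KRT8, KRT18 and HNF4A were well expressed, whereas GPC3 had 0 counts in all 4 libraries. In shCon AFP (157 and 129 counts), SERPINA1 (219 and 212), TTR (38 and 34) and APOA1 (13 and 22) were low. Of the 10 such markers tested, 6 were lower and 2 were higher in shUBXN1 at an adjusted p under 0.05. Of all genes tested, 28.2% were lower and 28.0% were higher. With DESeq2 1 marker was called higher. Leaving out either shCon library, which leaves 1 control, lost the calls higher. Leaving out the second also lost some of the calls lower. Albumin (ALB) fell from 17.6 ± 0.574 to 4.49 ± 0.411 CPM, counts scaled to library size (SD, n = 2). Transferrin (TF), APOB and TTR, also secreted by hepatocytes, fell by 1.96, 1.85 and 3.08 on the log2 scale. KRT8 and HNF4A fell by 0.44 and 0.30. The 2 called higher were SERPINA1 (0.40) and KRT18 (0.31). In bulk RNA, fewer cells of a type and less RNA per cell cannot be told apart. The summed level of this marker list was 5405 and 5453 TPM, reads scaled by gene length and library size, in shCon and 4640 and 5055 TPM in shUBXN1. Nearly all of it was the keratins KRT8 (4047 and 4059 TPM in shCon, 2993 and 3239 TPM in shUBXN1) and KRT18 (1283 and 1320 TPM, then 1595 and 1767 TPM). The sum therefore says little about the secreted hepatocyte proteins. Summed levels of the other marker lists were 0.914 to 1.31 TPM for fibroblasts, 9.99 to 14.1 TPM for endothelial cells and 84.2 to 103 TPM for leukocytes. The last 2 sums were carried by PECAM1 (log2 fold change 0.35) and CD68 (-0.25), whereas CD3E, a defining gene of T cells, had 0 counts in every library. Another gene covers 81.6% of the exon bases of CD68 on its own strand, so its value is uncertain. Of the fibroblast list, COL1A1 was counted 10 and 4 against 58 and 59 times and DCN 17 and 13 against 2 and 1 times. The part of these marker changes in the values of the lactosamine genes was not tested.

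B3GNT7 lies on the plus strand of chromosome 2 of GRCh38 from 231395710 to 231401164, with 2 exons in its canonical transcript. Promoter sequence is shown for 3 of the genes, the one with the large rise (B3GNT7), the one among the others with the largest fall (B3GNT3) and one with no counts at all (CHST2). Each window comes from RefSeq (GRCh38.p14) and runs from 250 bases before to 50 bases after the annotated start, 5′ to 3′ on the strand of the gene. The B3GNT7 window is chr2:231395460-231395759, the B3GNT3 window is chr19:17794888-17795187 and the CHST2 window is chr3:143119521-143119820, all on the plus strand. Capitals mark the GC box GGGCGG on either strand.

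B3GNT7: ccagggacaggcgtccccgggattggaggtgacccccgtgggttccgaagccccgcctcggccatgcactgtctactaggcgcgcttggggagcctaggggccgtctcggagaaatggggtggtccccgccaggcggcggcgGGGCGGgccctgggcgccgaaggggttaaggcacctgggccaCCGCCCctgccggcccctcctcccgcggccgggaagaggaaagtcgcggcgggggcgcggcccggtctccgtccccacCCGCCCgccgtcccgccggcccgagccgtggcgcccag
B3GNT3: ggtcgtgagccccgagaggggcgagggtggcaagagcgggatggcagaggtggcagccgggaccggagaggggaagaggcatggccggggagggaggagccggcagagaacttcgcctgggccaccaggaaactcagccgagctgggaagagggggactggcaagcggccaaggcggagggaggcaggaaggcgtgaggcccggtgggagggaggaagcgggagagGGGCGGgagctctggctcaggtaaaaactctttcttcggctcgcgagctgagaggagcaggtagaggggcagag
CHST2: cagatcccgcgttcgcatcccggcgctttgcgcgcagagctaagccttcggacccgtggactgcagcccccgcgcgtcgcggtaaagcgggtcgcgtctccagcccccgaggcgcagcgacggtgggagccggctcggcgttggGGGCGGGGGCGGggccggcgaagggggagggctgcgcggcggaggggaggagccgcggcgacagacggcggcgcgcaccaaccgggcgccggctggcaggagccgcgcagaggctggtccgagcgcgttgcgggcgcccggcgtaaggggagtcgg

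The B3GNT7 promoter had 77.3% G and C and 37 CpG, more G and C than 94.1% of the 35116 promoter windows in the table and more CpG than 88.7% of them. It held 3 GC boxes, a motif found in 45.0% of all windows, and 1 CCAAT box, found in 34.6%. The CHST2 window was as rich in G and C (77.7%), had 51 CpG and 2 GC boxes, and belonged to a gene without a single count. The B3GNT3 window was lower, with 68.3% G and C, 19 CpG and 1 GC box. All 10 genes had at least 1 window, 14 in all. A GC box was present in 12 of these 14. The kappaB consensus, searched on both strands and present in 7.73% of all windows, was found in 1 window of B3GNT2 and 1 of FUT8 and in no other. The TATA box TATAAA (11.5% of all windows) and the E-box CACGTG (7.26%) were found in none of the 14, and the AP-1 motif TGANTCA (7.71%) in 1 window of FUT8. The kappaB and GC box letters can overlap in a G-rich stretch, and none of these matches is evidence of binding.

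B3GNT7 makes poly-N-acetyllactosamine and is best known for extending keratan sulfate chains. It was counted 18 and 12 times in the shCon libraries and 449 and 470 times in the shUBXN1 libraries. Exact 95% Poisson intervals, which cover counting error only, were 10.7 to 28.4 and 6.20 to 21.0 counts in shCon and 408 to 493 and 428 to 514 counts in shUBXN1. Both shCon libraries were close to silent and both shUBXN1 libraries were high. B3GNT7 was picked for this rise, so the gap between the groups is a description and not a test. Scaled to library size, the mean B3GNT7 level was 0.593 ± 0.116 CPM (SD, n = 2) for shCon and 19.1 ± 1.37 CPM (SD, n = 2) in shUBXN1. The log2 fold change fitted to these counts was 4.99, with a standard error of 0.206, or 31.7-fold. By log2 fold change B3GNT7 ranked 37 among the 16863 genes tested and 4 among the 11993 with a mean log2 CPM above 2. Just above it in the latter order were L1CAM (5.47) and IGFN1 (5.47), and just below it LGI3 (4.83) and ANXA8L1 (4.64). With each library left out in turn, the log2 fold change of B3GNT7 ranged from 4.80 without the second to 5.21 without the first shCon library.

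**Figure D1:**
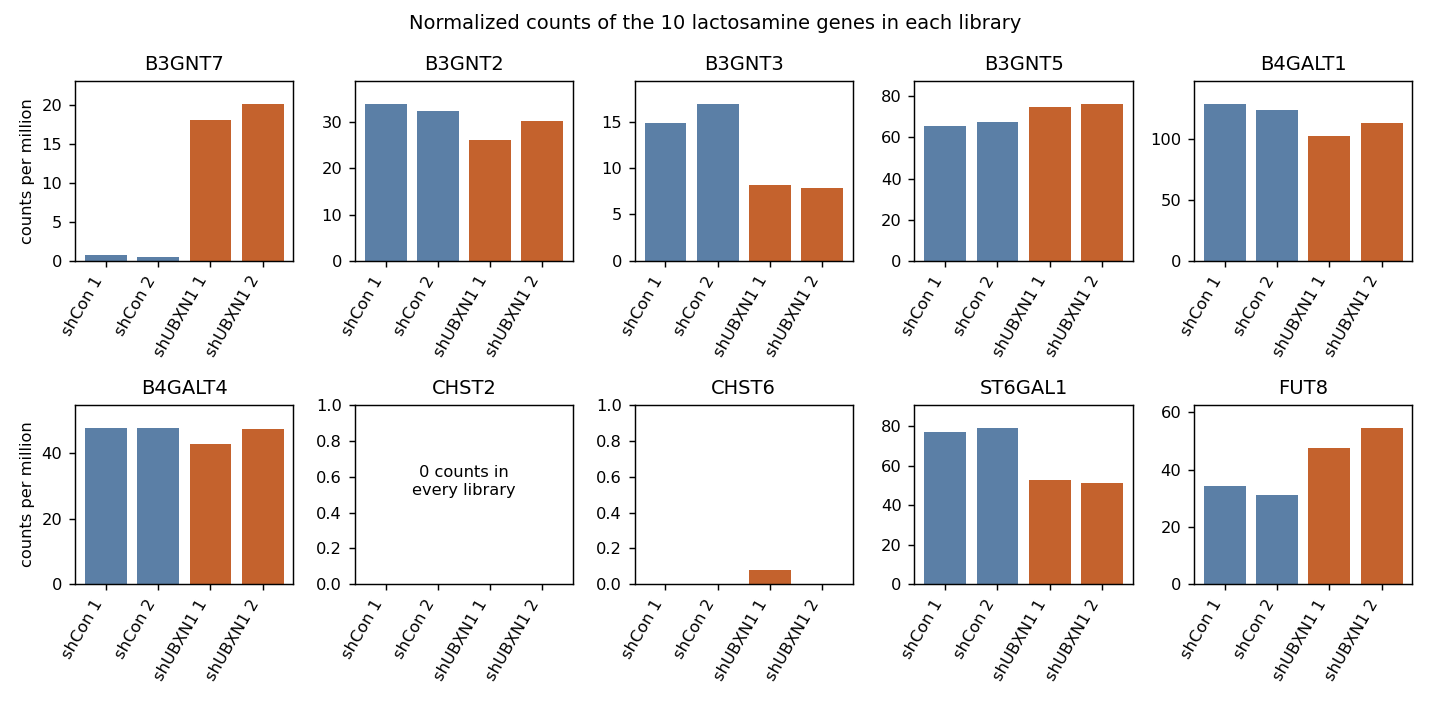
Normalized counts (CPM, vertical axis from 0 with its own range for each gene) of the 10 genes in the shCon (blue) and shUBXN1 (orange) libraries, 1 bar per library. B3GNT7 stands at 0.511 and 0.675 in shCon and at 18.1 and 20.1 in shUBXN1, CHST2 has no counts, and the changes of the others are small beside that of B3GNT7.

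The filter on low counts kept 8 of the 10 and removed CHST2 and CHST6. Of the 7 of these other than B3GNT7, 1 was higher in shUBXN1 at an adjusted p under 0.05 (FUT8) and 3 were lower (B3GNT3, ST6GAL1 and B4GALT1). In the same test 28.0% of all genes tested were higher and 28.2% were lower. When a fold of 2 was required with an unadjusted p below 0.05, none of the 7 was called in either direction, whereas 11.8% of all genes were called higher and 6.09% lower. Without the fold threshold, edgeR put 2 of the 7 higher and 4 lower at that unadjusted p. The share of all genes at that unadjusted p was not computed. It is at least 28.0% higher and 28.2% lower, since an adjusted p is never below its unadjusted p. Since the genes were listed with earlier results of this comparison known, nothing is read from these counts. Over the 7, the log2 fold change had a median of -0.22, against 0.016 over all genes tested.

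Among the other GlcNAc transferases, B3GNT3, which extends lactosamine on mucin-type O-glycans, moved against B3GNT7. It was counted 396 times in each shCon library, against 203 and 183 times in shUBXN1. Both shUBXN1 libraries lay below both shCon libraries, at 8.01 ± 0.273 against 15.9 ± 1.42 CPM (SD, n = 2). B3GNT3 fell by 0.98 on the log2 scale (standard error 0.134, adjusted p = 2.30e-05), just short of a fold change of 2. It passed that threshold, at -1.05, once the GC trend of every library was removed, at -1.07 without the first shCon library and at -1.02 without the first shUBXN1 library.

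B3GNT2, the main poly-N-acetyllactosamine synthase of most tissues, was counted 902 and 764 times in shCon and 646 and 710 times in shUBXN1. These are 33.8 and 32.5 CPM against 26.1 and 30.3 CPM, so the groups did not overlap but the shUBXN1 libraries differed from each other by more than the nearest of them differed from shCon. The log2 fold change of B3GNT2 was -0.23 (standard error 0.0961) and did not pass the threshold (adjusted p = 0.0503). Without the second shUBXN1 library B3GNT2 stood at -0.36 and passed (adjusted p = 0.00332). It also passed with the size factors of DESeq2 (adjusted p = 0.0498), with limma-voom (adjusted p = 0.0460) and with no filter on low counts (adjusted p = 0.0486). B3GNT5, which starts the lacto-series chain on glycolipids, was counted 1752 and 1591 times in shCon and 1851 and 1781 times in shUBXN1. At 66.7 ± 1.42 and 75.4 ± 0.905 CPM (SD, n = 2) the groups were close to each other without overlap, and the log2 fold change of 0.18 (standard error 0.0730) did not pass either (adjusted p = 0.0517). With total count scaling B3GNT5 stood at 0.26 and passed (adjusted p = 0.00614), as it did without the first shUBXN1 library, at 0.19 (adjusted p = 0.0353). It also passed with limma on log2(TPM + 1) (adjusted p = 0.0108), with at least 10 counts in every library (adjusted p = 0.0211) and with the GC trend removed (adjusted p = 0.0116). An antisense gene covers 16.2% of the exon bases of B3GNT5, and whether strand was used in counting was not given.

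The galactosyltransferases among the 10 moved little. B4GALT1, the ubiquitous enzyme that completes lactosamine on N-glycans, had 3436 and 2922 counts in shCon and 2552 and 2668 in shUBXN1, or 129 and 124 against 103 and 114 CPM. The groups did not overlap, and B4GALT1 fell by 0.22 on the log2 scale (standard error 0.0763, adjusted p = 0.0224). This call was lost with total count scaling (-0.14, adjusted p = 0.0682) and with limma on log2(TPM + 1) (-0.16, adjusted p = 0.0565). It was also lost without the first shCon library (-0.20, adjusted p = 0.153), the second shCon library (-0.26, adjusted p = 0.123) or the first shUBXN1 library (-0.16, adjusted p = 0.0516). B4GALT4, which prefers acceptors with sulfated GlcNAc, was counted 1271 and 1121 times in shCon and 1060 and 1111 times in shUBXN1. At 47.7 and 47.7 against 42.8 and 47.5 CPM, the second shUBXN1 library was almost level with the controls. The log2 fold change of B4GALT4 was -0.080 (standard error 0.0818, adjusted p = 0.430), and its sign turned with total count scaling.

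The sulfotransferases CHST2 and CHST6, which act on GlcNAc, were at or near 0. CHST2 had 0 counts in each of the 4 libraries, which allows up to 0.113 to 0.128 CPM per library at 3 counts. CHST6, the GlcNAc sulfotransferase of corneal keratan sulfate, had 0 counts in both shCon libraries and 2 and 0 in shUBXN1. The 2 counts correspond to 0.0808 CPM, below the same limit, so no difference was detectable at this depth and no fold is given.

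ST6GAL1 and FUT8 moved in opposite directions. ST6GAL1, which adds sialic acid to the galactose of lactosamine and is abundant in liver, was counted 2058 and 1858 times in shCon and 1304 and 1201 times in shUBXN1. Both shUBXN1 libraries were lower, at 52.0 ± 0.984 against 78.1 ± 1.34 CPM (SD, n = 2), a fall by 0.59 on the log2 scale (standard error 0.0741, adjusted p = 1.14e-05). FUT8 had 915 and 728 counts in shCon and 1174 and 1274 in shUBXN1. Both shUBXN1 libraries were higher, at 50.9 ± 4.94 against 32.7 ± 2.35 CPM (SD, n = 2), a rise by 0.64 on the log2 scale (standard error 0.0922, adjusted p = 4.00e-05) or 1.56-fold. An antisense gene, FUT8-AS1, covers 11.8% of the exon bases of FUT8. Neither call was lost under the alternatives tried. With each library left out in turn ST6GAL1 stood between -0.61 and -0.58 and FUT8 between 0.52 and 0.73.

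Levels were compared between genes per length, as TPM with the deposited gene lengths. In shCon the order was B3GNT5 (75.7 ± 0.0109 TPM, SD, n = 2), B4GALT1 (60.8 ± 2.81), B4GALT4 (40.1 ± 0.822), ST6GAL1 (35.8 ± 0.143), B3GNT2 (27.3 ± 1.34), FUT8 (18.4 ± 1.72), B3GNT3 (11.8 ± 0.805) and B3GNT7 (0.337 ± 0.0730), with CHST6 and CHST2 at 0. None of the neighbours above 0 in that order overlapped between libraries. In shUBXN1 FUT8 (29.8 ± 1.32 TPM) moved ahead of ST6GAL1 (24.9 ± 1.77 TPM), which overlapped with B3GNT2 (24.1 ± 1.29 TPM). B3GNT7 (11.3 ± 0.214 TPM) moved ahead of B3GNT3 (6.22 ± 0.539 TPM). Per length, B3GNT7 stood at 0.0346 and 0.0231 of the B3GNT3 level in shCon and at 1.68 and 1.95 times that level in shUBXN1.

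The order of the other genes depends on the length used. The deposited lengths of B3GNT7 and B3GNT3 (3539 and 2692 bases) are close to their GENCODE exon unions (3639 and 2769 bases), but that of B3GNT5 is 1766 bases against 8125. With exon-union lengths, an alternative chosen after the data were seen, B4GALT1 (90.3 TPM) and B3GNT2 (40.5 TPM) led in shCon and B3GNT5 (28.7 TPM) came after them. B3GNT7 stayed eighth in shCon (0.570 TPM) and stood sixth in shUBXN1 (18.4 TPM), ahead of ST6GAL1 (16.4 TPM) and B3GNT3 (10.2 TPM).

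Within the B3GNT family of 8 genes, B3GNT7 made up 0.322% and 0.240% of the summed TPM in shCon and 7.93% and 8.36% in shUBXN1. B3GNT3 made up 9.31% and 10.4% in shCon and 4.71% and 4.28% in shUBXN1. The share of B3GNT5 was 62.8% and 63.7% in shCon and 65.5% and 63.5% in shUBXN1. With exon-union lengths the share of B3GNT7 was 0.669% and 0.502% in shCon and 17.0% and 17.3% in shUBXN1, while B3GNT2 held 42.7% and 40.7% in shCon and 31.1% and 33.2% in shUBXN1. In each of the 2 scales, the B3GNT7 share in shUBXN1 was above that of B3GNT3.

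B3GNT7 was set beside its surroundings on chromosome 2, taking the 5 nearest protein-coding genes that were tested on each side. On the side before it, values on the log2 scale were 1.25 for ARMC9 (standard error 0.135, adjusted p = 2.43e-06), -0.52 for the proteasome subunit gene PSMD1, -0.82 for C2orf72, 1.01 for ITM2C and 0.065 for CAB39, which did not pass the threshold (adjusted p = 0.495). ARMC9, the nearest on that side, was counted 210 and 158 times in shCon against 416 and 423 times in shUBXN1. On the side after it, NCL, which encodes nucleolin, fell by 0.56 on the log2 scale (standard error 0.0864, adjusted p = 7.00e-05). PTMA, COPS7B and DIS3L2 fell by 0.70, 1.01 and 0.66, and PDE6D stood at 0.21 without passing the threshold (adjusted p = 0.149). Of these 10 neighbours 2 were higher and 6 were lower, where 28.0% and 28.2% of all genes were. No gene overlaps the exons of B3GNT7 in GENCODE.

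The 5 genes most like B3GNT7 over the 4 libraries were found by Euclidean distance between centred log2(CPM + 1) profiles, among the 11993 genes with a mean log2 CPM above 2. They were EPPK1 (distance 0.262), CD7 (0.429), GCGR (0.469), RPE65 (0.483) and MCAM (0.513), which encode epiplakin, a lymphocyte surface protein, the glucagon receptor, a retinoid isomerase and a cell adhesion molecule. EPPK1 went from 25.4 and 22.4 CPM in shCon to 312 and 271 CPM in shUBXN1. MCAM went from 2.29 and 1.96 CPM in shCon to 28.0 and 26.2 CPM in shUBXN1. RPE65 was near silent in shCon, at 0.113 and 0.341 CPM, and at 14.2 and 11.1 CPM in shUBXN1. With 2 groups of 2 libraries such a likeness says only that the rises were of like size on this scale.

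Beyond the 10 genes, 102 other genes of the pathway were listed by role, of which 80 passed the filter. At an adjusted p under 0.05, 29 of the 80 were higher in shUBXN1 (36.2%, against 28.0% of all genes) and 25 were lower (31.2%, against 28.2%). With a fold of 2 and an unadjusted p below 0.05, 8 were called higher and 5 lower, where 11.8% and 6.09% of all genes did. Their median log2 fold change was 0.035, against 0.016 for all genes tested. The counts by role that follow stand beside these same shares of all genes, 28.0% higher and 28.2% lower at an adjusted p under 0.05. All these lists were written with earlier results of these data known.

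**Figure D2:**
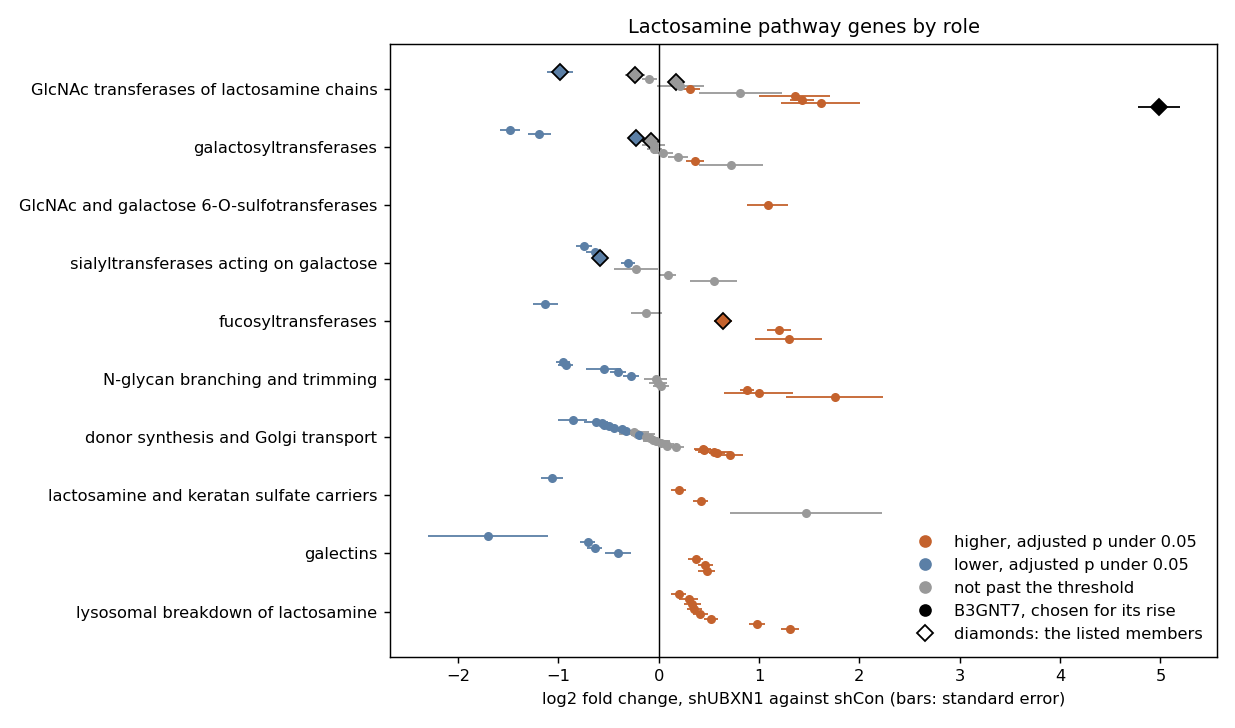
Log2 fold change of shUBXN1 against shCon (horizontal axis, bars are standard errors) for each tested gene of the lactosamine pathway, by role. Diamonds mark the listed members, and colours mark genes higher (orange), lower (blue) or not past an adjusted p of 0.05 (grey), with B3GNT7 in black as it was chosen for its rise. The first row also holds B4GAT1 and the galectin row LGALS3BP. B3GNT7 lies far to the right at 4.99, the 4 coloured sialyltransferases lie below 0, and the 8 breakdown enzymes lie above 0.

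Of the 8 other GlcNAc transferases listed, 6 were tested, 3 were higher and none was lower. The list also held B4GAT1, once named B3GNT1, which is a glucuronyltransferase that acts on alpha-dystroglycan. It rose from 11.6 ± 1.46 to 31.2 ± 3.37 CPM (SD, n = 2), a rise by 1.43 on the log2 scale (standard error 0.120, adjusted p = 2.12e-07). GCNT4, a branching enzyme of O-glycans, rose from 18 and 18 counts to 64 and 43 counts (log2 fold change 1.62, adjusted p = 0.00286). B3GNT8, a partner of B3GNT2, rose from 26 and 22 counts to 56 and 62 counts (log2 fold change 1.35, adjusted p = 0.00450), and an antisense gene covers 18.4% of its exon bases.

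Of the 10 other galactosyltransferases, 8 were tested, of which 1 was higher and 2 were lower. B3GALT5, which builds type I lactosamine chains, fell from 1457 and 1082 counts to 454 and 416 counts. This was 2.79-fold lower (adjusted p = 2.66e-08). B3GALT6, a linker enzyme of glycosaminoglycans, fell by 1.19 on the log2 scale (adjusted p = 6.65e-07). B4GALT2 rose by 0.37 (adjusted p = 0.00317). Of the other sulfotransferases, CHST7 alone was tested. It rose from 85 and 76 counts in shCon to 163 and 166 counts in shUBXN1 (log2 fold change 1.09, adjusted p = 3.95e-04).

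Among the 8 sialyltransferases that act on galactose, 7 were tested, ST6GAL1 included. Of the 7, 4 were lower at an adjusted p under 0.05 and none was higher, where 28.2% and 28.0% of all genes were. ST3GAL6 stood at 0.55 on the log2 scale (adjusted p = 0.0592). With total count scaling, limma-voom, at least 10 counts in every library, the GC trend removed or a replicate block, 1 sialyltransferase was called higher. ST3GAL5, the synthase of ganglioside GM3, fell by 0.74 on the log2 scale (65.5 ± 4.19 to 39.1 ± 1.24 CPM, SD, n = 2, adjusted p = 2.63e-06). ST3GAL4 fell by 0.64 (55.8 ± 0.876 to 35.9 ± 2.70 CPM, SD, n = 2, adjusted p = 1.55e-05). ST3GAL1 stood at -0.31 (adjusted p = 0.00286), and at -0.25 without the first shCon library, where it no longer passed (adjusted p = 0.0686). Of the 11 fucosyltransferases 5 were tested, FUT8 included, and 3 were higher and 1 was lower. Without FUT8, 2 of the 4 tested were higher and 1 was lower. FUT11 rose from 9.03 ± 0.412 to 20.7 ± 0.481 CPM (SD, n = 2), with a log2 fold change of 1.20 (adjusted p = 1.06e-06), and an antisense gene covers 11.9% of its exon bases. FUT2, which makes H antigens in secretions, rose from 28 and 34 counts to 85 and 63 counts (adjusted p = 0.00426). FUT4, a synthase of Lewis X on lactosamine, fell from 497 and 427 counts to 201 and 204 counts (log2 fold change -1.13, adjusted p = 2.82e-06). Other genes cover 10.1% of the exon bases of FUT4 on its own strand and 10.9% on the other, so its value is uncertain.

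The N-glycan branching and trimming list of 12 genes had 11 tested, of which 5 were lower and 3 were higher. MGAT4B fell from 356 ± 0.919 to 184 ± 3.04 CPM (SD, n = 2), with a log2 fold change of -0.95 (adjusted p = 8.63e-08). MGAT5, whose branch is the preferred site of poly-N-acetyllactosamine, fell from 122 ± 6.96 to 64.1 ± 1.87 CPM (SD, n = 2), with a log2 fold change of -0.93 (adjusted p = 1.67e-07). The mannosidase gene MAN1C1 (9 and 14 against 47 and 29 counts) and MGAT4A (30 and 41 against 82 and 56 counts) were called higher (adjusted p = 0.00669 and 0.0237). MGAT4A lost its call with DESeq2 (adjusted p = 0.0655). Without the first shCon library their log2 fold changes were 1.39 and 0.71, and without the first shUBXN1 library 1.41 and 0.74, none of them past the threshold. The number called higher was then 1.

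All 24 genes of donor synthesis and Golgi transport were tested, of which 5 were higher and 9 were lower. FPGT and GMDS, of GDP-fucose supply, fell by 0.86 (adjusted p = 1.68e-04) and 0.62 (adjusted p = 5.24e-04) on the log2 scale. GFPT2, an entry enzyme of UDP-GlcNAc synthesis, rose by 0.72 (adjusted p = 2.78e-04), and NANP, of sialic acid synthesis, by 0.58 (adjusted p = 3.61e-05).

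Of the carriers of lactosamine and keratan sulfate, 4 of 10 were tested. The keratan sulfate core proteins KERA, FMOD, PRELP, OMD, OGN and ACAN did not pass the filter, and LUM, which encodes lumican, fell from 844 and 758 counts to 345 and 390 counts (log2 fold change -1.06, standard error 0.107, adjusted p = 1.28e-06). The lysosomal membrane protein LAMP1, a major carrier of poly-N-acetyllactosamine, rose by 0.42 (adjusted p = 2.61e-04). LAMP2 stood at 0.20 (adjusted p = 0.0317), and did not pass without the first (0.24, adjusted p = 0.0979) or the second shCon library (0.15, adjusted p = 0.495).

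Of the 7 galectins listed, 6 were tested, of which 2 were higher and 4 were lower. The list also held LGALS3BP, a secreted ligand of galectins. LGALS3, the best known reader of lactosamine chains, fell from 87.0 ± 1.51 to 53.2 ± 0.0833 CPM (SD, n = 2), with a log2 fold change of -0.71 (adjusted p = 1.67e-06). LGALS4 fell by 0.64 (adjusted p = 5.62e-06), while LGALS3BP rose by 0.48 (adjusted p = 2.11e-04). LGALS2, at 36 and 19 against 13 and 3 counts, had a log2 fold change of -1.70 (adjusted p = 0.0257). It lost its call with DESeq2 (-1.72, adjusted p = 0.0861), with total count scaling (-1.61, adjusted p = 0.0635), without the first shCon library (-1.28, adjusted p = 0.275), where 2 galectins were called lower, and without the second shUBXN1 library (-1.05, adjusted p = 0.183).

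All 8 enzymes of the lysosomal breakdown of lactosamine were tested and were higher in shUBXN1 at an adjusted p under 0.05, where 28.0% of all genes were. Their log2 fold changes were 0.20 to 1.31, with a median of 0.38. With a fold of 2 and an unadjusted p below 0.05, 1 of them (FUCA1) was called higher, where 11.8% of all genes were. The list was written with earlier results of these data known, so nothing is read from these counts. With DESeq2 and with the GC trend removed 7 of the 8 were called higher. Of all genes, 3851 and 4535 were then called higher, against 4727. Fewer of the 8 were also called without the first or the second shCon library, fits that leave 1 control. FUCA1, the lysosomal fucosidase, rose from 27.9 ± 2.18 to 69.1 ± 3.68 CPM (SD, n = 2), a rise by 1.31 on the log2 scale (standard error 0.0861, adjusted p = 2.02e-08). GLB1, which releases terminal galactose, rose by 0.42 (adjusted p = 3.21e-04).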

How the data were processed

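RNA of 2 shCon and 2 shUBXN1 MHCC97H libraries was sequenced in paired ends. The authors deposited expected counts per gene, not normalized, with a gene length. By the methods reads were aligned with Hisat2 to GRCh38, whereas the submitters' processing notes name GRCh37, HISAT2 2.0.4 and StringTie 1.3.0. Counting tool, annotation release and strand setting were not given in the sources used here. Of 61541 gene IDs, 61369 (99.7%) matched GENCODE 44, from which GRCh38 positions were taken, and 61.2% of these had its exon-union length. Between 62.4% and 64.6% of the values above 0 were whole numbers.

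Expected counts were rounded to whole numbers. filterByExpr kept 16863 genes, which were scaled by TMM. The quasi-likelihood test of edgeR 4.0.16 (R 4.3.3; glmQLFit, glmQLFTest) had no covariates and 2 residual degrees of freedom. Adjusted p-values are Benjamini-Hochberg values of that test over all genes. A standard error is the size of the fold change (log2) over the root of its F statistic. CPM used TMM-scaled library sizes, and TPM the deposited lengths. Replicates differed by more than counting noise (chi-square per gene 3.78 in shCon and 8.37 in shUBXN1).

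The genes, lists and alternatives were chosen with earlier results of these data known. Named are the 10 genes, UBXN1, up to 4 genes per list with the largest fold changes among those with an adjusted p under 0.05 and groups that did not overlap (for a list with none, 2 with the highest TPM), 5 neighbours of B3GNT7 on each side and the 5 genes most like it. L1CAM, IGFN1, LGI3, ANXA8L1, KRT8, KRT18, HNF4A, GPC3, AFP, APOA1, SERPINA1, CD3E, ST3GAL6, MAN2A2, LGALS1, LGALS8 and the carriers with few counts were named after their values were seen. Some genes that the rule names are not reported here. Alternatives were DESeq2 1.42.0, its size factors, total count scaling, limma 3.58.1 on log2(TPM + 1), limma-voom, other filters, a GC trend removed with loess, a replicate block and leaving out each library.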

Additional observations from a re-analysis of the deposited data

How the results depend on the processing

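The fold change of B3GNT7 rests on few control counts in 2 libraries. On the log2 scale it was 3.20 with limma on log2(TPM + 1), where the pseudocount of 1 exceeds the control level, ranged from 4.80 to 5.21 with each library left out, and lay between 4.86 and 5.07 under the other alternatives. With the fold threshold of 2, that limma fit gave 1028 higher and 524 lower genes, against 1997 and 1027, and 4 and 3 of the other pathway genes, against 8 and 5. At least 10 counts in every library left 1321 genes called higher. With the GC trend removed 1 of the 10 genes (B3GNT3) was called lower at that fold, against 0, and with each library left out the number was 0 to 1. B4GALT4 turned to 0.0040 with total count scaling, and CAB39 to -0.010 without the second shUBXN1 library (-0.010 to 0.12 with each library left out). The causes of these shifts were not tested, beyond what each alternative changes by its construction. UBXN1, B3GNT3, ST6GAL1 and FUT8 kept their calls under every alternative that was run.

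Same-numbered libraries deviated together only weakly (correlation over genes 0.0775), and nothing in the labels ties the numbers to a shared day or culture. With a replicate block, 2 of the 7 tested genes other than B3GNT7 were higher and 4 were lower at an adjusted p under 0.05. B3GNT5 (0.18, adjusted p = 0.0376) and B3GNT2 (-0.24, adjusted p = 0.0215) then passed. Of all genes, 5000 were called higher and 5023 lower with that block. Total count scaling moved the median of all genes from 0.016 to 0.10.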
